A study of Mus musculus with 6 samples.

Results

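Cells with V-less kappa contigs are bone marrow cells in which the V(D)J assay assembled a kappa light chain transcript that reaches the constant region, IGKC, but holds no V segment, and in which no productive kappa or lambda contig was found. They numbered 12609 of the 26915 cells that passed the filter on UMIs, genes and mitochondrial RNA (46.8%). The cells were selected on their V(D)J contigs alone, so the presence of the contig is not itself a result, and the comparisons below use gene expression, heavy chain state and contig features that the rule did not read. The cells had been sorted from bone marrow as B220+ and negative for IgM and IgD. The gate also left out cells with CD3e or CD8a (T cells), CD11b, F4/80 or Gr-1 (myeloid cells) and CD49b (NK cells). The 3 groups were wild-type C57BL/6 mice of 12 weeks (young), wild-type C57BL/6 mice of 100 weeks (aged) and nfkbie-/-nfkbib-/-nfkbia+/- C57BL/6 mice of 12 weeks (IkB-deficient). Each group was 1 gene expression library and 1 V(D)J library from a pool of 2 mice, so group, pool, sex of the animals and library cannot be told apart, no test between groups was possible, and every 95% interval covers counting error only.

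The kappa locus can be transcribed before it is rearranged. Such germline, or sterile, transcripts start at promoters upstream of the J segments and are spliced to the constant exon, and they are known to come on as pro-B cells with a heavy chain become pre-B cells, shortly before V-to-J joining. NF-kB was named for a protein that binds an enhancer in the kappa intron, and IRF4, PU.1 (Spi1), Spi-B and the E2A proteins also act at the kappa enhancers. The IkB proteins Nfkbie, Nfkbib and Nfkbia hold NF-kB in the cytoplasm. Plasmacytoid dendritic cells, which carry B220 and therefore pass this gate, are marked by Siglech and lack Cd79a, the signalling partner of the B cell receptor.

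The marker transcripts of the label, Cd79a and Igkc, were seen in most of the cells. At least 1 Cd79a UMI was counted in 99.3% of the young, 98.5% of the aged and 89.1% of the IkB-deficient V-less kappa cells, against 88.7%, 79.7% and 55.2% of the other cells without a productive light chain. Igkc was seen in 89%, 81.5% and 93.6%, against 37.8%, 18.2% and 45.2% of the others, but these UMIs read the same kappa transcripts as the contigs that chose the cells and are no separate support for the label. Cells were classed as Cd79a cells (at least 1 Cd79a UMI and fewer than 3 Siglech UMIs), Siglech cells (at least 3 Siglech UMIs and no Cd79a), both, or neither. Cd79a cells were 98.1% and 97.3% of the young and aged V-less kappa cells, but 85.2% of the IkB-deficient ones, of which 10.5% were Siglech cells.

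Depth differed between the libraries. The median cell of the young, aged and IkB-deficient libraries held 3895, 4442 and 6629.5 UMIs, while the V(D)J libraries were close in reads (140492624, 141956901 and 149568227). The gene expression libraries shared 85 to 108 barcodes pairwise, and 9 to 23 of these were V-less kappa cells in both. Of the V(D)J barcodes, 99.1% to 99.9% were in the gene expression library of their own group and 0.881% to 1.13% in that of another group.

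The contigs themselves had 2 forms. None of the 3879 young, 2371 aged and 6391 IkB-deficient V-less kappa contigs was marked productive or full length, and none had a CDR3. This follows from the rule, which asks for no V segment and no productive light chain contig, and is not a result. Only 13, 5 and 14 cells held more than 1 V-less kappa contig. Contig sequences were not used here, and whether these contigs are germline transcripts or partial assemblies of rearranged ones was not tested. Most named no J segment, and a kappa J was named in 20.2% (18.9 to 21.5), 20.4% (18.8 to 22) and 36.1% (35 to 37.3). Where it was named it was nearly always IGKJ1, the J segment farthest from the constant region: 724 of 782 contigs in young (92.6%), 447 of 483 in aged (92.5%) and 2246 of 2310 in IkB-deficient mice (97.2%). In productive kappa contigs of the same libraries IGKJ1 made up 30.2%, 29.8% and 37.4%, with IGKJ2, IGKJ4 and IGKJ5 at 14.7% to 28.9% each. IGKJ3, which is not functional in the mouse, was named in 2 V-less contigs in all, both IkB-deficient.

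The lengths of contigs with no J named peaked at the same places in all 3 libraries. Over all contigs the most frequent length was 639 bases in each library, and 28%, 26.4% and 28.4% of contigs had 630 to 650 bases. A second group of 470 to 480 bases held 16.8%, 12.9% and 9.84%. Both groups were mainly contigs with no J named. Contigs with a J were most often 842 bases long in young and in aged mice and 1208 bases long in IkB-deficient mice. The median V-less contig rested on 10, 7 and 11 UMIs, and contigs with a single UMI were 5.47%, 10.9% and 4.04%.

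**Figure D1:**
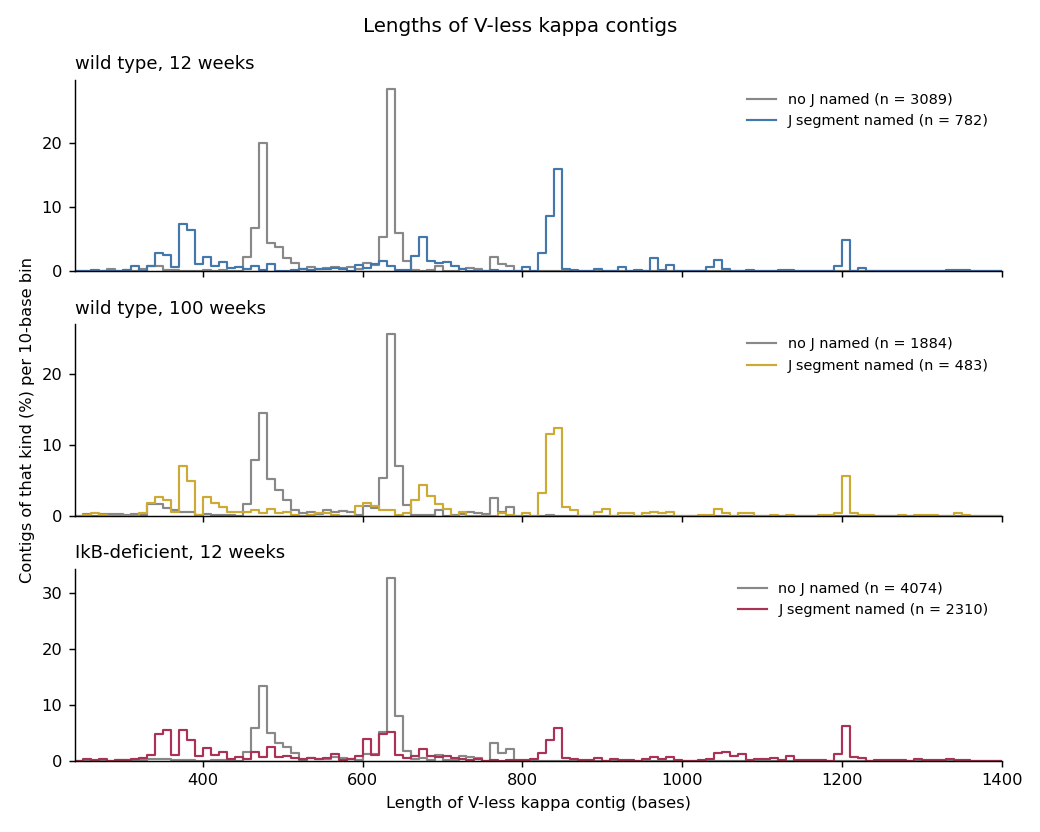
Lengths in bases of the V-less kappa contigs (x axis) against the percentage of contigs of the same kind in each 10-base bin (y axis), one panel per group, in grey without and in colour with a named J segment. Contigs without a J peak near 475 and 639 bases in every group, and contigs with a J have peaks near 842 and 1208 bases.

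V-less kappa cells were most common in IkB-deficient and least common in aged mice. They made up 40.7% (39.7 to 41.7) of the young cells, 3866 of 9509. In aged mice they were 30.1% (29.1 to 31.2), 2366 of 7850, and in IkB-deficient mice 66.7% (65.8 to 67.7), 6377 of 9556. The share was 1.64-fold (1.6 to 1.69) higher in IkB-deficient than in young mice and 0.741 times (0.711 to 0.773) the young share in aged mice. Over cells without a productive light chain the shares were 50.8%, 36.3% and 72.7%.

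The aged and young shares lay closer together within a heavy chain state than over all cells. Among Cd79a cells without a productive light chain but with a productive heavy chain contig, 65.5% (3536 of 5397) were V-less kappa cells in young and 62.6% (1901 of 3039) in aged mice, a ratio of 0.955 (0.923 to 0.987). Without a productive heavy chain contig the shares were 16.4% (258 of 1572) and 16.1% (401 of 2485), a ratio of 0.983 (0.852 to 1.13). A productive heavy chain was found in 80.9% of all young and 61.4% of all aged Cd79a cells. In both wild-type groups a productive heavy chain thus went with a V-less kappa share that was 3.99-fold (3.56 to 4.47, young) and 3.88-fold (3.53 to 4.26, aged) higher.

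In IkB-deficient mice the V-less kappa share was nearly as high without a heavy chain as with one. It was 80.8% (79.8 to 81.8; 4625 of 5723) without a productive heavy chain contig and 84.9% (82.5 to 87.1; 806 of 949) with one, a ratio of 1.05 (1.02 to 1.08). Set against young mice, the share was 4.92-fold (4.4 to 5.51) higher without and 1.3-fold (1.25 to 1.34) higher with a heavy chain. A productive heavy chain was found in 14.3% of IkB-deficient Cd79a cells, so that 13.1% of the IkB-deficient V-less kappa cells had one, against 92.4% in young and 81.1% in aged mice. A heavy chain contig with a V segment that was not marked productive was present in 11.5% of the IkB-deficient V-less kappa Cd79a cells without a productive one, and in 28.7% and 23.7% of the young and aged ones. The amount of transcript differed too: the median V-less contig count in Cd79a cells without a heavy chain was 3, 2 and 12 UMIs in the young, aged and IkB-deficient library, and with a heavy chain 10, 9 and 15.

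**Figure D2:**
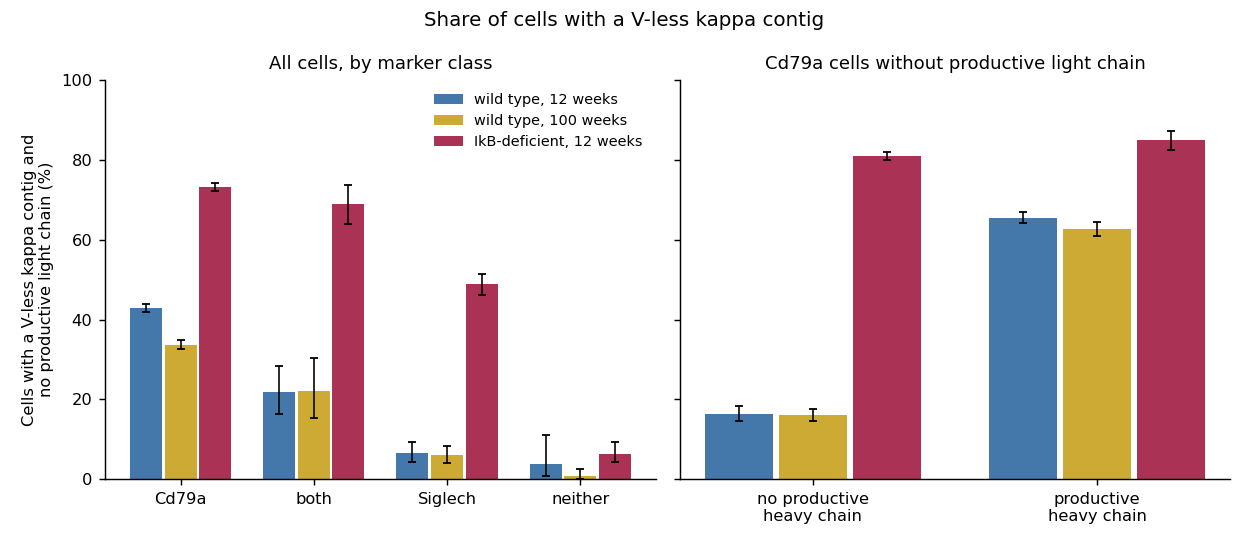
Percentage of cells with a V-less kappa contig and no productive light chain (y axis, bars from 0, error bars 95% Clopper-Pearson intervals for counting error), by marker class over all cells on the left and by heavy chain state among Cd79a cells without a productive light chain on the right. The IkB-deficient bars reach 48.8% in Siglech cells and 80.8% in Cd79a cells without a heavy chain, against 6.03% to 6.49% and 16.1% to 16.4% in wild-type mice.

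The IkB-deficient difference in Cd79a cells without a productive heavy or light chain held at matched gene expression depth. Between 4000 and 6000 UMIs per cell the share was 15% (58 of 387) in young, 14.1% (78 of 552) in aged and 81.7% (1050 of 1285) in IkB-deficient mice. V(D)J depth was not matched: the median cell of that bin held 9, 9 and 28 contig UMIs, a count that includes the V-less kappa contigs. The part of V(D)J recovery in the difference was not tested. In every depth bin from under 2000 to over 12000 UMIs the IkB-deficient share lay between 41.6% and 86.5%, and neither wild-type share passed 24.9%. With a heavy chain the young share climbed with depth, from 31.5% under 2000 UMIs to 63% at 3000 to 4000 and 90.3% at 8000 to 12000, and the IkB-deficient share was between 74.1% and 89.6% throughout. Above 6000 UMIs the young and IkB-deficient shares with a heavy chain lay within each other's intervals. The aged share with a heavy chain was below the young one in some bins: it was 70.8% (66 to 75.2) against 81% (78.3 to 83.5) at 4000 to 6000 UMIs and 76.2% (71.7 to 80.4) against 87.8% (84.6 to 90.4) over 12000 UMIs. In the other 5 bins the young and aged intervals overlapped.

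**Figure D3:**
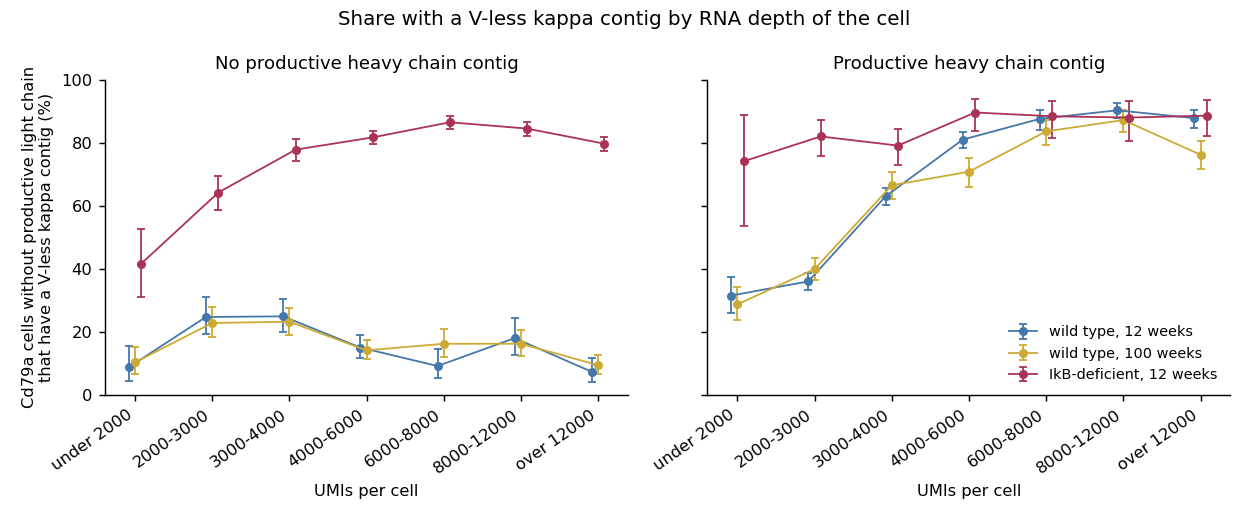
Percentage of Cd79a cells without a productive light chain that hold a V-less kappa contig (y axis, points with 95% Clopper-Pearson intervals), by UMIs per cell (x axis), without a productive heavy chain on the left and with one on the right. On the left the IkB-deficient points lie between 41.6% and 86.5% and the wild-type points at or below 24.9%, and on the right the young and IkB-deficient points lie within each other's intervals above 6000 UMIs.

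The share in heavy chain-positive wild-type cells also went with the cell cycle. Cells were called cycling with at least 3 UMIs of G2 and M phase genes after thinning to 2000 UMIs. All shares and depths by cell cycle are over Cd79a cells without a productive light chain. Of the cycling ones with a heavy chain, 93.6% were V-less kappa cells in young and 89.2% in aged mice, against 54.5% and 50.4% of resting ones. In IkB-deficient mice these were 90.6% and 83.5%. The cycling cells with a heavy chain were also deeper, at medians of 8797 against 3289 UMIs in young and 8692 against 3212 in aged mice. In IkB-deficient mice the medians were 9373 and 3678. The part of depth in the difference between cycling and resting cells was not tested. Without a heavy chain, cycling and resting cells had close shares in each group: 17% and 17% in young, 17.8% and 16.3% in aged, and 83.4% and 80.5% in IkB-deficient mice.

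Many heavy chain-positive Cd79a cells that had neither a V-less kappa contig nor a productive light chain held another kind of light chain contig. A contig with a V segment but not marked productive was present in 78.5%, 64.5% and 83.2% of them (young, aged, IkB-deficient), against 5.83%, 4% and 5.71% of the V-less kappa cells. Without a heavy chain such a contig was present in 8.14%, 6% and 51.9% of the other cells and in 3.1%, 1.75% and 2.31% of the V-less kappa cells. No J segment was asked for, and whether these contigs were rearranged was not tested. V-less kappa contigs were also seen beside a completed light chain, in cells that the rule leaves out. Over cells of every marker class, they were in 43.3%, 37.5% and 49.4% of those with a productive kappa chain only. They were in 27.2%, 16% and 70% (49 of 70) of those with a productive lambda chain only.

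Contigs with a named J gave another order within IkB-deficient mice. In Cd79a cells without a productive light chain they were found in 13.4%, 13.9% and 16.6% of cells with a heavy chain, and in 2.04% (32 of 1572), 1.65% (41 of 2485) and 29% (1661 of 5723) of cells without one. In IkB-deficient cells without a heavy chain they were found in 43.1% of cycling and 23.4% of resting cells. They also became more frequent with depth there, from 2.25% under 2000 UMIs to 44.2% over 12000 UMIs, while in young cells without a heavy chain no depth bin passed 4.84%.

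Siglech cells held V-less kappa contigs at a low share in wild-type mice and at a high share in IkB-deficient mice. The share was 6.49% (25 of 385) in young, 6.03% (33 of 547) in aged and 48.8% (46.1 to 51.4; 671 of 1376) in IkB-deficient mice, 7.51-fold (5.12 to 11) higher than in young mice. Over all Cd79a cells the share was 42.9%, 33.7% and 73.2%. The ratio of the Cd79a to the Siglech share was 6.6 (4.52 to 9.66), 5.58 (4.01 to 7.79) and 1.5 (1.42 to 1.59). Cells of the neither class stood at 3.95% (3 of 76), 0.872% (3 of 344) and 6.48% (26 of 401). The IkB-deficient Siglech share was thus 7.52-fold (5.17 to 10.9) above that of the neither class, at medians of 6528 and 7429 UMIs per cell, while the young ratio of 1.65 (0.51 to 5.31) could not be told from 1 at this number of cells. In aged mice the ratio was 6.92 (2.14 to 22.4). The neither class is no matched background, since a contig of any kind was found in 19.7%, 35.2% and 31.2% of its cells and in 80.5%, 87.4% and 89% of Siglech cells. Between 6000 and 8000 UMIs the Siglech share was 5.85% (10 of 171), 7.45% (14 of 188) and 57.5% (357 of 621). The IkB-deficient share was lower in deeper cells, at 32.3% (64 of 198) from 8000 to 12000 UMIs and 23.4% (22 of 94) over 12000. The young shares there were 6.33% (5 of 79) and 10.5% (2 of 19), and the aged ones 5.26% (9 of 171) and 2.78% (2 of 72). Over 12000 UMIs the young and IkB-deficient intervals overlapped. From 2000 to 3000 UMIs the IkB-deficient share was 26.1% (6 of 23), with 0 of 7 young and 0 of 10 aged cells.

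Kappa RNA was also higher in the gene expression of IkB-deficient Siglech cells with the contig. Its UMIs read the same transcripts as the contigs that chose the cells, so this is no separate support for the contigs. Igkc, the kappa constant gene (ENSMUSG00000076609, chromosome 6, 70726435 to 70726754, mm10), stood at 1579 CPM (UMIs of the gene per 1000000 UMIs; 1542 to 1616) in the 671 V-less kappa Siglech cells and at 267 (253 to 281) in the other Siglech cells of the library. In the 5431 Cd79a cells with V-less kappa contigs it was 1052. Cd79a was 0 by the rule for the class. Other transcripts of B cell precursors, chosen after their values were seen, were at low levels. Vpreb3, which binds newly made heavy chains in B cell precursors, was at 8.41 CPM in the Siglech V-less kappa cells and 4.56 in the other Siglech cells, and the surrogate light chain genes Igll1 and Vpreb1 were lower in the V-less kappa cells, at 16.6 and 12 CPM against 41 and 14.8. Of 4 measured immature or mature B markers, 3 were over 2-fold higher in the V-less kappa cells (median 1.45 on the log2 scale): Cd74, H2-Aa and Ltb, none of which is made by B cells alone. The plasma cell markers lay above 0 in 3 of 3 measured, 1 of them over 2-fold (median 0.92), and the median over all genes was -0.03. Ighm, which plasmacytoid dendritic cells are known to transcribe, was at 660.3 against 635. In wild-type Siglech cells as a whole Igkc was at 78.2 (young) and 46 CPM (aged), against 872 in IkB-deficient mice. A productive heavy chain was found in 3.64%, 2.01% and 0.436% of Siglech cells.

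**Figure D4:**
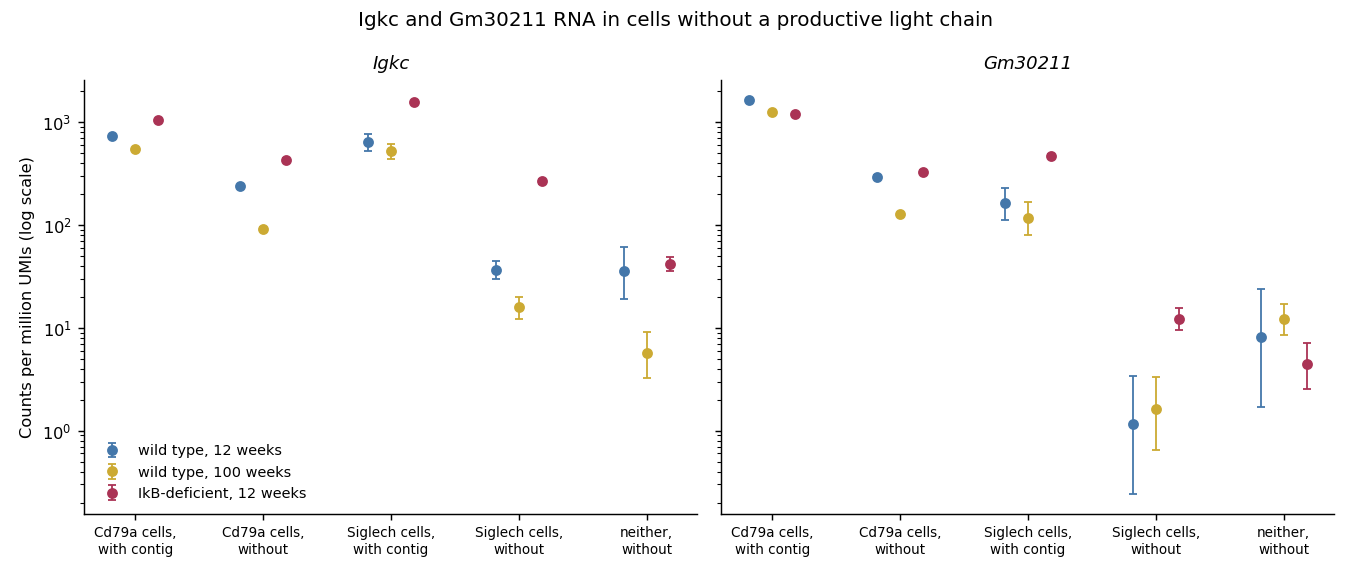
Igkc and Gm30211 RNA in CPM (y axis, log scale, 95% Poisson intervals for counting error) in cells without a productive light chain, by marker class and presence of a V-less kappa contig (x axis) and by group (colour). Igkc in IkB-deficient Siglech cells with the contig stands at 1579 CPM, and Gm30211 in wild-type Siglech cells without it at 1.17 and 1.62 CPM.

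One noncoding gene beside the kappa locus was higher in the cells with the contig in all 7 comparisons of cells with and without it. Gm30211 (ENSMUSG00000105646) is a long noncoding RNA gene, placed by the RefSeq annotation of GRCm38.p6 on chromosome 6 at 70729213 to 70751690, 2459 bases past the end of Igkc. In the deposited feature list it stands between Igkv3-1 and Igkj1, so the gene model counted by the authors may reach into the J region, and its UMIs may come from the same transcripts as the contigs. It is therefore given as a description of the same locus and not as separate evidence. In Cd79a cells without a productive heavy or light chain it was at 808 CPM in V-less kappa cells and 31.7 in others in young mice, 25.5-fold (22.5 to 29) higher. The values were 566 and 21.9 in aged mice (25.8-fold) and 1054 and 270.2 in IkB-deficient mice (3.9-fold, 3.75 to 4.06). With a heavy chain it was at 1685 and 603 in young, 1352 and 425 in aged, and 2123 and 793 in IkB-deficient mice. In IkB-deficient Siglech cells it was at 475 and 12.4 (38.4-fold, 30 to 50). Rpia, the next listed gene downstream, was at 153 and 86.2 CPM in young Cd79a cells without and at 121 and 153 in those with a heavy chain.

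Gene expression was compared between V-less kappa cells and the other Cd79a cells of the same library and heavy chain state, over genes with a mean of at least 20 CPM, and a gene over 2-fold apart is called higher or lower. All cells with at least 1 Cd79a UMI and no productive light chain were taken here, so cells of the both class were included. In young cells without a heavy chain, 39 of 6130 genes were higher (0.636%) and 33 lower (0.538%). In aged cells 33 of 5906 were higher (0.559%) and 24 lower (0.406%). Of the 10 highest genes, 7 were shared between the young and aged lists. Fcrla, an intracellular Fc receptor-like protein of B cells, was at 383 against 73 CPM in young and 287 against 41.7 in aged mice. Rsph1, a ciliary radial spoke gene, was at 175 against 34.8 and 98.1 against 20.9, and Myl4, a myosin light chain, at 269 against 56.8 and 151 against 42.6. Polm, a DNA polymerase known to act in light chain joining, was at 69.1 against 18.1 and 43 against 9.11. Lgr5, better known from stem cells of the gut, was at 61.5 against 16.1 and 80 against 18.

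Among 20 regulators of kappa germline transcription, 2 were higher and 1 lower of the 19 measured in young, and 3 higher and 1 lower of the 18 measured in aged cells without a heavy chain, with a median log2 difference of 0.30 in both against 0.03 and 0.01 over all genes. Irf4 was at 113 against 34.7 CPM in young (3.24-fold, 2.67 to 3.92) and 124 against 45.2 in aged mice (2.75-fold). Ikzf3, which encodes Aiolos, was at 67.7 against 20.2 and 75.2 against 12. Spib was at 404 against 215 and 233 against 105, the latter over 2-fold, and Ikzf1 at 266 against 158 and 215 against 128. Spi1, Tcf12, Pax5, Tcf3 and Ebf1 had log2 differences of 0.29 to 0.62. Myc was the one lower regulator in both, at 16.6 against 47.3 and 53.9 against 123. Foxo1, which drives Rag expression, was at 201 against 188 and 158 against 151.

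The V(D)J recombination genes were divided. Dntt, the terminal transferase of the pro-B stage, was lower in V-less kappa cells, at 875 against 1803 CPM in young and 832 against 1806 in aged mice. Rag1 was at 145 against 159 and 123 against 147, and Rag2 at 216 against 169 and 174 against 169.7. Of the NF-kB subunits, Relb was at 44.9 against 20.6 in young (2.17-fold, 1.62 to 2.89; 0.96 on the log2 scale with 5 CPM added) and 36.6 against 20 in aged mice. Nfkb2 was at 33.2 against 20.4 and 26.9 against 20.2, and Nfkb1 differed by -0.01 and 0.17 on the log2 scale. The 11 measured NF-kB target genes had medians of -0.03 and 0.06, against 0.03 and 0.01 over all genes, and none passed 2-fold. Among the lowest genes in young cells were the basophil protease Prss34 (0 against 73.9 CPM) and Ccl5 (0.691 against 41.9), which are made by other lineages. Emb and Egfl7 were lower in both wild-type groups, and Siglech itself was at 101 against 179 CPM in young and 58.3 against 53.5 in aged cells. Of the plasmacytoid dendritic markers, 9 of 9 measured lay below 0 in young (median -0.68, 1 over 2-fold, summed level 936 against 1429 CPM) and 4 of 6 in aged cells (median -0.27, none over 2-fold, 629 against 715). These sums include cells of the both class. In Cd79a cells with fewer than 3 Siglech UMIs they were 325 against 380.2 CPM in young and 267 against 389 in aged mice. The part of plasmacytoid-like cells in the wild-type gene differences was not tested.

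In IkB-deficient cells without a heavy chain few genes set the V-less kappa cells apart from the other cells. Among Cd79a cells with fewer than 3 Siglech UMIs, 51.9% of these others held a light chain contig with a V segment not marked productive. In young and aged mice it was 8.14% and 6%. Of 5891 genes, 1 was higher (0.017%) and 8 were lower (0.136%), and the higher gene was Gm30211. Fcrla was at 70.1 against 60.8 CPM, Irf4 at 47 against 40.9, Ikzf3 at 51.9 against 41.6 and Dntt at 1114 against 1157. The 18 measured regulators had 1 gene lower, Id2 (11.3 against 34.4), none higher and a median of 0.10. The other lowest genes were Gzma (2.11 against 42.8), Ccl5 (8.78 against 67.5), Nkg7, Cd7, Fcer1g and Klrd1, most of them known from NK cells. Of the 3 measured NK and innate lymphoid markers all 3 were lower, with a median of -1.56 against 0.01 over all genes, and the part of NK-like cells in this difference was not tested. The plasmacytoid dendritic markers lay below 0 in 6 of 6 measured (median -0.35, none over 2-fold). When cells with any V-bearing light chain contig were left out on both sides, 79 genes in place of 9 passed 2-fold, and Fcrla and Ikzf3 then differed by 2.04 and 1.93 on the log2 scale.

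With a heavy chain the V-less kappa cells of wild-type mice had higher cell cycle genes. In young cells 229 of 5880 genes were higher (3.89%) and 115 lower (1.96%), and in aged cells 168 of 5756 higher (2.92%) and 113 lower (1.96%). With median-of-ratios scaling the numbers were 267 and 73 in young and 198 and 84 in aged cells, since the median over all genes lay at -0.10 and -0.09. The list of 20 G2 and M phase genes lay over 2-fold higher throughout in both, with medians of 2.14 and 1.70. Ube2c, a ubiquitin-conjugating enzyme of mitosis, was at 746 against 136 and 697 against 161 CPM. Of the 13 S phase genes, 7 in young and 2 in aged cells were over 2-fold higher. Lower genes included the lymphotoxin gene Ltb (15.8 against 118 and 18.2 against 96.8), Dntt (60.5 against 239.7 and 123 against 520.2), Rag1 (72.6 against 189 and 68.5 against 172), and in young cells Ms4a1, which encodes CD20 (12.3 against 82), and Vpreb2 (14.9 against 73.2).

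Of the kappa regulators in these cells, 1 was higher and 1 lower of 19 measured in young and 0 higher and 1 lower of 17 in aged mice, with medians of -0.20 and -0.25. Irf4 was at 155 against 147 CPM in young and 166 against 159.8 in aged cells, Ikzf3 at 137 against 241 and 128 against 158, Foxo1 at 121 against 237 and 94.6 against 172, and Ezh2, a chromatin methyltransferase, at 388 against 189 and 353 against 198. In resting cells alone, 51 genes in young and 71 in aged cells passed 2-fold in place of 344 and 281. In cells without any V-bearing light chain contig, the log2 difference of Irf4 was 1.05 and 0.87 and that of Ikzf3 0.40 and 1.07, so for Ikzf3 the sign turned. The NF-kB targets lay below 0 with a heavy chain, in 11 of 12 measured in young (4 over 2-fold lower, median -0.68), 10 of 12 in aged (3 over 2-fold lower, median -0.60) and 13 of 14 in IkB-deficient cells (none over 2-fold, median -0.45). The NF-kB subunits lay below 0 in 5 of 5, 4 of 4 and 4 of 5 measured, with 1, 1 and 0 over 2-fold lower. Cd79a differed by -0.89, -0.64 and -0.29 on the log2 scale. IkB-deficient cells with a heavy chain had 18 of 5922 genes higher (0.304%) and 12 lower (0.203%), of which Ube2c (359 against 94.7), Cdc20 and Ccnb1 were the highest and Lipc, F5, Aire, Ms4a1 and Fcer2a the lowest.

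**Figure D5:**
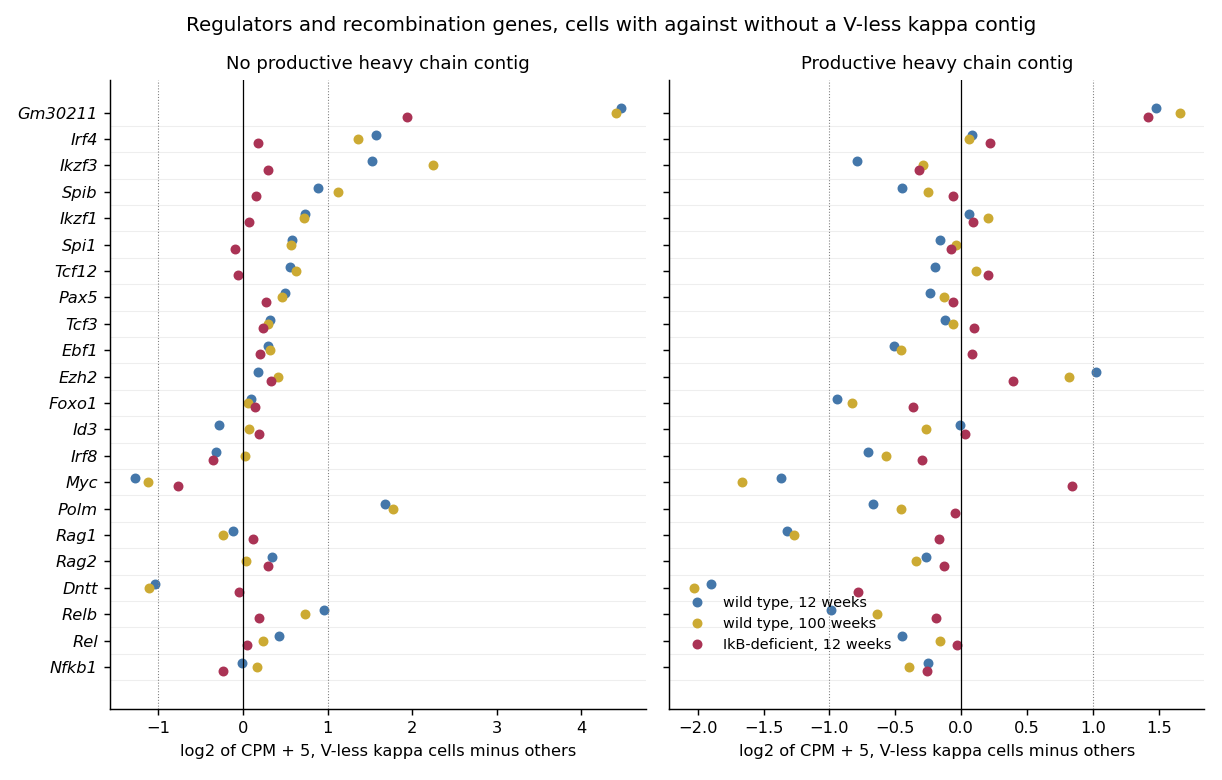
Log2 difference in CPM (5 CPM added; x axis) between V-less kappa cells and other Cd79a cells without a productive light chain for regulators and recombination genes (rows), without a heavy chain on the left and with one on the right, colour by group, dotted lines at 2-fold and no point where a gene was not among those named for that comparison. Without a heavy chain Irf4 and Ikzf3 lie at 1.36 to 2.24 in wild-type and at 0.18 and 0.29 in IkB-deficient cells, and Dntt near -1 in wild-type and at -0.05 in IkB-deficient cells. The other cells differ between groups: 8.14% (young), 6% (aged) and 51.9% (IkB-deficient) of those without a heavy chain held a V-bearing light chain contig. With such cells left out on both sides the IkB-deficient Ikzf3 difference was larger, as given in the text.

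IkB-deficient Siglech cells with V-less kappa contigs differed from Siglech cells without them in 54 of 5920 genes higher (0.912%) and 81 lower (1.37%). MHC class II genes were higher in 10 of 10 measured, 7 of them over 2-fold, with a median of 1.44 against -0.03 over all genes. H2-Ab1 was at 2373 against 756 CPM, H2-Eb1 at 1905 against 610.3, the invariant chain gene Cd74 at 15689 against 6052 and the peptide loading gene H2-DMb2 at 336 against 89.4. Of 9 measured plasmacytoid dendritic markers 8 lay above 0 (median 0.53): Siglech, which defines the class, was at 2153 against 1239.9, Bst2 at 5422 against 3756 and Tcf4 at 875 against 732. The summed level of the 10 markers was 10921 against 7506 CPM.

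Proliferation and progenitor genes were lower in the same cells. Of 16 measured G2 and M phase genes none was above 0 and 11 were over 2-fold lower (median -1.25), and 7 of 12 S phase genes were over 2-fold lower (median -1.07). Mpo and Prtn3, granule proteins of myeloid progenitors, were at 0 against 51.2 and 8.05 against 94.7 CPM, and Vim at 416 against 1642. The myeloid progenitor and neutrophil markers summed to 12.5 against 203 CPM and the conventional dendritic markers to 4907 against 1808. The latter sum rested on the class II gene H2-Aa (4771 against 1584 CPM), and the other 3 measured of that list lay below 0 (list median -0.52), with Itgax, which encodes CD11c, at 38.7 against 76.1. Their part in the difference was not tested. Between 3000 and 8000 UMIs 54 genes in place of 135 passed 2-fold, the class II median was 1.05 and the G2 and M phase median -0.34. The regulators had a median of 0.02, with Irf4 at 23.2 against 19.4, Spib at 270 against 212, Relb at 51.6 against 36.3 and Nfkb2 at 55.9 against 35. Of 12 measured NF-kB targets 3 were over 2-fold higher (median 0.43), among them Ltb at 153 against 49.4.

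V-less kappa cells without a heavy chain were then compared between groups. IkB-deficient cells had 121 of 6045 genes higher (2%) and 177 lower (2.93%) than young cells. NF-kB targets were higher in 8 of 14 measured (median 1.10 against -0.05 over all genes): Cd74 was at 2839 against 218 CPM, Ltb at 912 against 107 (8.52-fold, 7.27 to 10) and Ebi3 at 200.1 against 2.07. The non-canonical subunit Nfkb2 was at 145 against 33.2 (4.38-fold, 3.3 to 5.94), Relb at 68 against 44.9 and Bcl3, a nuclear IkB protein, at 46.3 against 11.1. Of the targeted genes, Nfkbie was at 2.62 against 131, Nfkbib at 17.3 against 38.7 and Nfkbia, itself an NF-kB target, at 236 against 324. MHC class II genes were higher in 6 of 9 (median 1.65).

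Of 17 measured kappa regulators, 1 was over 2-fold higher and 2 lower in IkB-deficient than in young cells, and 13 lay below 0 (median -0.38). Ebf1 was at 1303 against 3522 CPM, Irf4 at 47 against 113, Spib at 249 against 404 and Ikzf1 at 150 against 266, while Myc was at 66.4 against 16.6. Of the genes that were higher in young V-less kappa cells than in their other cells, Rsph1 was at 11.1 against 175, Polm at 8.01 against 69.1 and Fcrla at 70.1 against 383, while Gm30211 was 1.3-fold higher in IkB-deficient cells (1.23 to 1.38). Igll1 was at 4097 against 3031 CPM and Dntt at 1114 against 875. The pools differed in sex-linked RNA as well, with Xist at 568 against 0 CPM and the Y-linked Eif2s3y at 0 against 133, and the part of sex in these values was not tested.

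Aged and young V-less kappa cells without a heavy chain were close. Of 6001 genes 15 were higher in aged cells (0.25%) and 14 lower (0.233%), and with median-of-ratios scaling 18 and 11. Xist was at 182 against 0 CPM. Myc was at 53.9 against 16.6 (3.25-fold, 2.09 to 5.25), Ccnd2 at 122 against 47 and the immediate early gene Fos at 795 against 339, and Rela was at 16.5 against 45.6. Spib was at 233 against 404, and the 19 measured regulators had a median of -0.11 and the 12 measured NF-kB targets of -0.06.

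Contigs without a V segment from other immunoglobulin constant regions were present in the V-less kappa cells too. V-less IGHM contigs were found in 95%, 97% and 98.4% of V-less kappa Cd79a cells without a heavy chain, and in 63.4%, 73.3% and 88.9% of the others. V-less IGLC3 contigs were found in 5.04%, 1.75% and 16.4% of these V-less kappa cells and in 1.14%, 1.01% and 15.7% of the others. With a heavy chain V-less IGHM contigs were in 79.7%, 84.7% and 85.2% of V-less kappa cells and in 63%, 72.1% and 77.6% of the others. There IGLC3 was found in 12%, 6.79% and 21.1% of V-less kappa cells against 27.4%, 19.4% and 23.1% of the others. The IkB-deficient intervals overlapped (18.3 to 24.1 and 16.4 to 30.9). IGLC1 was found in 5.46%, 3.31% and 11.3% against 26.7%, 18.5% and 21%. Without a heavy chain IGLC1 was found in 0.388%, 0% and 2.57% against 0.533%, 0.192% and 3.46%, with overlapping intervals in each group. V-less IGHG2B contigs, from a constant region whose germline transcript is known to come on in activated B cells, were found in 1.94%, 2.24% and 12.7% of V-less kappa cells without a heavy chain and in 3.27%, 2.4% and 8.74% of the others.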

How the data were processed

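The deposited matrices give unnormalised UMI counts for each gene in each called cell. Per the submitters' processing notes the authors used Cell Ranger and mm10, and the matrix headers name software 3.0.1. The deposited contig tables hold counts of reads and UMIs per contig, and the version behind them is not given in the sources used here. Each V(D)J library was joined by barcode to the gene expression library of its group. Cells under 500 UMIs or 300 genes, or above 10% mitochondrial UMIs, were dropped. The members, lists and classes were chosen with earlier results of these data known.

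UMIs were summed per stratum and given as CPM, over all genes for Igkc and Gm30211 levels by class and without the antigen receptor genes in gene comparisons. These comparisons took all cells with at least 1 Cd79a UMI. Log2 differences have 5 CPM added, and genes of a mean of at least 20 CPM count as measured. Shares have Clopper-Pearson, sums Poisson, CPM ratios conditional binomial and ratios of shares log-scale intervals. With 1 library per group and assay there is no residual variation, so no p-value was computed. Genes named are the 10 highest and 10 lowest of each comparison, the 4 most abundant of each list, and all measured members of 4 lists (kappa regulators, NF-kB subunits and inhibitors, recombination genes). Gm30211 and Fcrla outside that rule, Rpia, and Vpreb3, Vpreb1 and Igll1 in Siglech cells were added after their values were seen. Scrublet (scanpy 1.11.5) marked 723, 493 and 731 cells, which stayed in except in an alternative; 42.7%, 38.3% and 73.5% of them were V-less kappa cells. On simulated data every comparison recovered the sign of 100% of the changed genes, and at the simulated fold size where it did so least often the interval excluded 1 for 92% of them in IkB-deficient cells with and 94% in young cells without a heavy chain, 96% between aged and young, 98% between IkB-deficient and young, and 100% in the others. The simulated counts had Poisson error only and no variation between cells, pools or libraries, so these values speak to counting error alone.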

Additional observations from a re-analysis of the deposited data

Results flagged for a closer look

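V-less kappa contigs without a productive light chain also occurred in V(D)J barcodes outside the cells analysed, either in the matrix but below the filter or not in it. They were in 28 of 73 such barcodes in young (38.4%), 36 of 145 in aged (24.8%) and 40 of 65 in IkB-deficient mice (61.5%). Among the analysed cells with any contig the shares were 43.5%, 33.7% and 70.8%, and the difference was not tested. These barcodes lie outside the analysed cells and entered no comparison.

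The MHC class II genes of V-less kappa cells with a heavy chain had medians of opposite sign, with a median log2 difference from other cells of 0.26 in young mice (4 of 7 measured above 0 and 3 below) and -0.69 in IkB-deficient mice (10 of 10 below 0). In aged mice the median was -0.05 (3 above 0 and 4 below), and over all genes the medians were -0.10, -0.09 and -0.01 in young, aged and IkB-deficient mice. The difference between the groups was not tested. Without V-bearing light chain contigs the young median was 1.67.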

How the results depend on the processing

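Of 133 recomputed values, 71 stayed within the margin (the 95% interval of the reported ratio of shares, or 1.5 times the reported gene count), 60 moved and 2 reversed, and the causes were not tested except where fewer genes or cells remained by construction. A ratio whose value passed to the other side of 1 counts as reversed, whatever its interval. Ratios of shares are given in the order below, with gene counts as genes over 2-fold either way.

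Counting only contigs with a named J put both IkB-deficient ratios below 1. The Cd79a to Siglech ratio went from 1.5 to 0.93 (0.844 to 1.02), which could not be told from 1. The ratio of heavy chain to none went from 1.19 over all classes to 0.62 (0.538 to 0.715). The named J setting moved the IkB-deficient to young ratio to 2.94. It moved the Cd79a to Siglech ratios to 2.99 (young) and 3.08 (aged) from 6.6 and 5.58. The heavy chain ratios moved to 6.25 and 8.47 from 4.77 and 4.77. Excluding cells with any V-bearing light chain contig gave 1.7 for IkB-deficient to young and heavy chain ratios of 6.3, 6.08 and 1.27. Requiring 2 UMIs per contig gave 0.699 for aged to young, Cd79a to Siglech ratios of 10.5 and 9.2, and heavy chain ratios of 7.02, 7.24 and 1.23. Keeping cells of both marker cuts on both sides gave 3.6, 3.69 and 1.38. Over cells with a contig, aged to young was 0.775, the heavy chain ratios 3.39, 3.62 and 1.11 and the IkB-deficient Cd79a to Siglech ratio 1.36. Between 3000 and 8000 UMIs, IkB-deficient to young was 1.55, the young heavy chain ratio 5.44 and the IkB-deficient Cd79a to Siglech ratio 1.34. A stricter cell filter gave 1.85 for the latter.

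Gene counts in the comparisons without a heavy chain (young, aged, IkB-deficient, from 72, 57 and 9) were 174, 175 and 19 between 3000 and 8000 UMIs, 19, 15 and 1 at a mean of at least 100 CPM and 136, 88 and 25 with no minimum. Those with a heavy chain (from 344, 281 and 30) were 99, 85 and 6 at 100 CPM, and the IkB-deficient count was 138 between 3000 and 8000 UMIs, 92 with no minimum, 51 with 1 CPM added and 57 without Scrublet doublets. Removing doublets gave 109 (young) and 16 (IkB-deficient) without a heavy chain, and adding 1 CPM gave 14 in the latter. In resting cells the counts were 51 and 71 in young and aged cells with a heavy chain and 17 in IkB-deficient cells without one, which had 79 without V-bearing light chain contigs. The Siglech comparison (from 135) gave 54, 32 and 246 between 3000 and 8000 UMIs, at 100 CPM and with no minimum. IkB-deficient against young (from 298) gave 108 and 532 at 100 CPM and with no minimum. Aged against young (from 29) gave 76, 3, 90, 47 and 56 between 3000 and 8000 UMIs, at 100 CPM, with no minimum, with 1 CPM added and in resting cells. Leaving out V-bearing light chain contigs and taking resting cells only were chosen after seeing the data, and the former was not run for IkB-deficient cells with a heavy chain, where under 50 cells remained on one side. Irf4 in wild-type cells without a heavy chain stayed between 1.32 and 1.77 and Gm30211 between 4.4 and 5.51 under every setting run. No paired analysis was possible because each group was 1 library per assay. Few wild-type Siglech V-less kappa cells (25 and 33) limited what could be said of them.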
